A study of Equus caballus with 12 samples.

Results

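The equine genes described here were abundant in the heart and in the liver and scarce in the lung. They were chosen by their measured levels. Read counts per gene were divided by median-of-ratios size factors, which put libraries of unequal depth on 1 scale and give what is called normalised read counts here, and the median of the 4 libraries of each tissue was taken. A gene was included when its heart and liver medians were both at least 200 and lay within 3-fold of each other, and when the lower of them was at least 10 times the lung median plus 1. Of the 31217 genes in the files, 19 met these limits, and 17 of them carry a gene symbol in the tables of the study. Because the limits were set on the levels of these same libraries, the tissue differences of the 19 genes are given as a description: model calls are counted beside their share of all genes, no p is given for them, and nothing is read from them.

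The values came from RNA-seq of polyadenylated RNA in 12 libraries, 4 each from the heart (left ventricle), the liver (right lobe) and the lung (caudal lobe of the right side). The donors were 4 healthy stallions of a cold-blooded type, 1 to 2 years old and sampled at slaughter, and each gave 1 library per tissue, so that replicates with the same number share an animal. All were males, and no genotype or treatment is named for any of them. Whole tissue pieces were used, so fewer cells of a type and less RNA per cell cannot be told apart in any level below.

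The libraries held between 4345694 (liver replicate 4) and 23474239 (heart replicate 1) reads assigned to genes. The tissue labels were checked with marker genes that have an identifier in the tables of the study. The summed level of 10 cardiomyocyte genes (MYH7, TNNT2 and others) lay between 739577 and 1098989.8 normalised counts in heart, 231 and 381 in liver, and 169 and 397 in lung. For 12 hepatocyte genes (ALB, APOA1 and others) the sums were 1418 to 77731 in heart, 2270748 to 3689647 in liver and 643 to 1477 in lung, and none of the markers of either list was at 0 in all libraries of a tissue. The top heart value belongs to heart replicate 2, whose hepatocyte sum was 2.81% of the liver mean, against 0.0513% to 0.198% in the other hearts. Of the 19 genes, 8 had their lowest heart level in that library and 1 (PLIN5) its highest. The shares over all genes were not computed, so nothing is read from these counts. Values without heart replicate 2 are given where it changes a count of tissue calls in the 19 genes, their relatives, neighbours or lists. They are also given where it changes a heart against liver count of the 19 genes or moves a named fold change by over 1.5 times. For all genes tested, ranges over leaving out each library are given at the end. None of 12 lung epithelial markers has an identifier in those tables, so the lung label could be checked only through MARCO, a receptor of alveolar and other macrophages, with 18.4 to 246 normalised counts in heart, 885 to 4822 in liver and 7830.3 to 27776 in lung.

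Cardiac muscle and hepatocytes both run on mitochondrial oxidation: the heart burns fatty acids, ketone bodies and lactate without pause to contract, while the liver oxidises fatty acids and amino acids to pay for the synthesis of glucose, plasma proteins and bile acids. Both tissues also store glycogen and lipid droplets, and both arise where the embryonic heart and the foregut endoderm lie side by side. The lung is built from thin epithelium, capillaries and resident immune cells. The 19 genes fall into 5 groups by role: secreted proteins, proteins of the cell surface and of signalling, nuclear factors, metabolic and mitochondrial proteins, and identifiers with no symbol. No sequence of these genes was in the sources used here, and levels are compared within a gene only, since transcript lengths were not used.

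Few of the genes that heart and liver shared were low in lung. Heart and liver medians of at least 200 were found for 4442 genes, and 3665 of these lay within 3-fold of each other. Of the 3665, 3277 had a lower median under 2 times the lung median plus 1, 319 lay between 2 and 5 times, 50 between 5 and 10 times, and 19 at 10 times or more. The same limits turned to the other pairs of tissues gave 110 genes high in heart and lung and low in liver, and 54 genes high in liver and lung and low in heart. Closest inside the 10-fold limit were PGM1 (10.01 times) and GRB14 (10.29 times), and closest outside were CLYBL (9.66 times) and GOT1 (9.11 times). At the limit of 200 no member was close: HMCN2 (257 in liver) and GATA4 (263 in liver) were nearest inside, and ENSECAG00000029428 (197 in liver) and ESPN (166 in heart) nearest outside. At the 3-fold limit between heart and liver, ENSECAG00000027930 (2.89-fold) and OCIAD2 (2.82-fold) were nearest inside, and DGAT2 (3.70-fold) and PPP1R1A (4.22-fold) nearest outside.

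All 19 genes passed the filter on low counts and entered the edgeR model of the 3 tissues. With a call set at an adjusted p below 0.05 and a log2 fold change of 1 or more in size, 19 of 19 were called higher in heart than in lung (20.7% of the 15436 genes tested were) and 19 of 19 higher in liver than in lung (19.4%). Both calls together were made for 8.38% of all genes tested. In 19 of 19 genes every heart and liver library lay above every lung library, which held for 9.83% of all genes tested. The choice of the genes fixes these counts. Over all genes tested, 3194 were higher and 3778 lower (24.5%) in heart than in lung, and 2994 higher and 4793 lower (31.1%) in liver than in lung. With libraries scaled by their totals alone, the median over all genes of the log2 fold change shifted to -1.85 for heart and -1.81 for liver over lung, the calls became 878 higher and 11264 lower for heart and 1151 higher and 10788 lower for liver, and 19 of the 19 genes were still called higher in both. The log2 fold change of heart over lung had a median of 5.37 over the 19 genes (range 3.37 to 10.82) beside -0.03 over all genes tested, and that of liver over lung a median of 5.44 (range 3.61 to 10.57) beside -0.26.

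**Figure D1:**
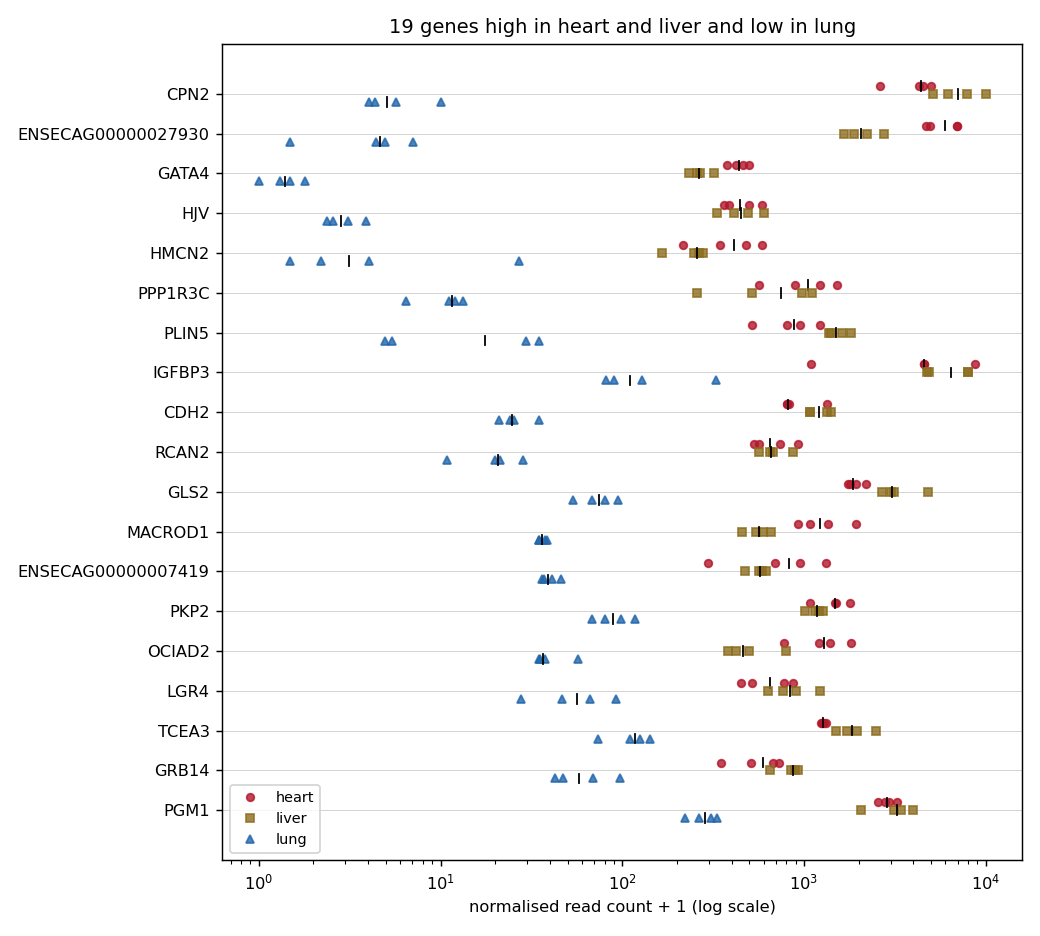
Normalised read counts plus 1 (horizontal log axis) of the 19 genes in heart (circles), liver (squares) and lung (triangles), 4 libraries each, with the median as a black tick; genes are ordered by the lower of the heart and liver medians over the lung median plus 1, with CPN2 (874 times) at the top and PGM1 (10.01 times) at the bottom. In every gene the lung triangles lie left of all heart and liver points, and HMCN2 has 1 lung library at 25.9 normalised counts, far from the other 3.

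**Figure D2:**
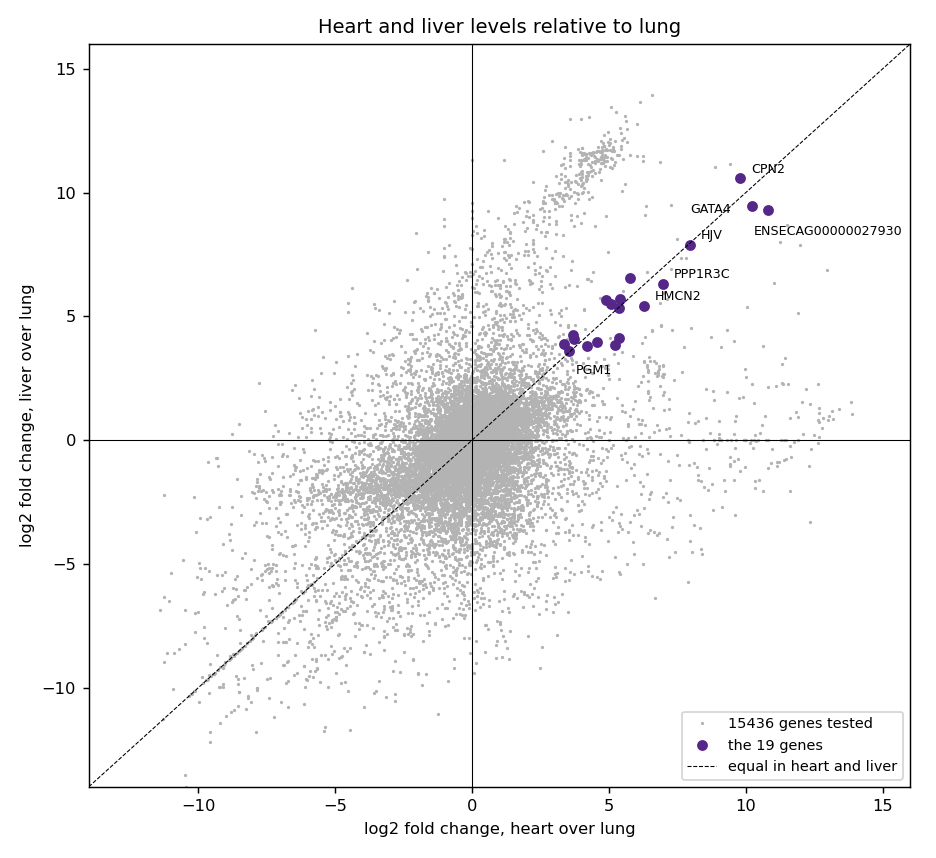
Fitted log2 fold changes of heart over lung (horizontal axis) and of liver over lung (vertical axis) for the 15436 genes tested (grey) and the 19 genes (purple), with a dashed line where heart and liver are equal. The 19 genes lie along the line between 3.37 and 10.82 on the horizontal axis, a position that follows from how they were chosen.

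In this set, 3 genes encode secreted or matrix proteins. IGFBP3, the main carrier of insulin-like growth factors in plasma, had 4557, 4571, 8685 and 1096 normalised counts in heart, 4767, 7965, 7950.4 and 4883 in liver and 80.1, 328, 89.1 and 128 in lung. Liver libraries were within 1.67-fold of each other, while heart replicate 4 was far below the other hearts (highest over lowest 7.93-fold) and lung replicate 2 was the highest lung. CPN2, the regulatory subunit that stabilises carboxypeptidase N in blood, had 4534, 2606, 4992 and 4286 in heart, 5138, 7856, 10047 and 6227 in liver and 4.71, 3.38, 9.06 and 3.06 in lung. Every liver was above every heart, and the lung libraries together held 52 reads of this gene. Its heart median of 4409.8 normalised counts was 874 times the lung median plus 1. Heart replicate 2, the library with the high hepatocyte sum, had the lowest CPN2 of the 4 hearts. Whether what raised that sum also added to its CPN2 level was not tested. HMCN2, a hemicentin of the extracellular matrix, had 586, 343, 216 and 480.0 in heart, 249, 276, 265 and 163 in liver and 25.9, 0.483, 1.21 and 3.06 in lung. Lung replicate 1 held 33 of the 47 lung reads. In the same library the summed cardiomyocyte markers were 397 normalised counts, against 169 to 216 in the other lungs, which is 0.0441% of the heart mean; its part in the HMCN2 value was not tested.

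The relatives of CPN2 and IGFBP3 that have an identifier had other tissue patterns. Only 4 of 7 symbols considered for the IGF binding proteins have an identifier, and the hemicentin relative of HMCN2 has none. CPN1, the catalytic subunit that pairs with CPN2, had 0, 49.3, 7.32 and 0 normalised counts in heart, 2492, 1529, 2322 and 2125 in liver and 0, 0, 1.81 and 0.68 in lung. It was higher in liver than in lung by 11.31 ± 1.17 on the log2 scale (SE, n = 4 each, edgeR adjusted p = 5.86e-06) and lower in heart than in liver by a log2 fold change of -7.32 ± 0.98 (adjusted p = 4.43e-05; -11.10 without heart replicate 2). CPN1 was also called higher in heart than in lung (log2 fold change 3.99, adjusted p = 0.0219), a call that ended without heart replicate 2 (0.20, adjusted p = 0.913) and with the replicate block (3.81). IGFBP1, the gene next to IGFBP3, had 0, 85.1, 0 and 1.91 in heart, 1347, 3295, 411 and 581 in liver and 0.786, 0.965, 0.302 and 0.68 in lung. Its heart over liver log2 fold change was -6.00 ± 1.17 (edgeR adjusted p = 7.77e-04), and -10.59 without heart replicate 2. IGFALS, which joins IGFBP3 in the circulating complex, was likewise lower in heart (6.69 to 109) than in liver (1906 to 3186; log2 fold change -6.08 ± 0.79, adjusted p = 3.73e-05; -7.93 without heart replicate 2). IGFBP2 was also lower in heart than in liver (-5.88, adjusted p = 2.46e-05; -6.75 without that library), whereas IGFBP7 was higher in heart than in liver (2.61, adjusted p = 2.24e-06). None of these relatives had a heart median within 3-fold of its liver median.

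Another 6 genes act at the cell surface or in signalling. CDH2 encodes N-cadherin, the adhesion molecule that joins cardiomyocytes at the intercalated disc and is also present between hepatocytes. It had 805, 821, 809 and 1342 normalised counts in heart, 1336, 1085, 1401 and 1083 in liver and 24.4, 23.2, 19.9 and 33.7 in lung. Heart replicates 1 to 3 were nearly equal and heart replicate 4 stood above them, within the range of the livers. CDH13, a cadherin held by a lipid anchor, was highest in heart, with 1519 to 2908 normalised counts in heart, 0 to 10.9 in liver and 12.4 to 106 in lung (heart over liver log2 fold change 9.07, edgeR adjusted p = 2.16e-06).

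PKP2, plakophilin 2 of the desmosomal plaque, had 1474, 1504, 1083 and 1797 in heart, 1212, 1008, 1268 and 1144 in liver and 117, 98.0, 66.8 and 78.9 in lung. Livers were within 1.26-fold of each other, the tightest liver spread of the 19 genes, and heart and liver libraries overlapped. The other desmosomal genes with an identifier did not share 1 pattern. DSP, the desmoplakin to which plakophilin 2 binds, had medians of 3409 in heart, 1512 in liver and 2442 in lung. The desmosomal cadherins DSG2 (203 in heart, 453 in liver and 69.5 in lung, medians) and DSC2 (175, 680.0 and 52.2, in the order heart, liver and lung) were higher in liver than in lung (log2 fold changes 2.71 and 4.01, edgeR adjusted p = 3.61e-06 and 1.76e-06) and lower in heart than in liver (-1.19 and -1.81, adjusted p = 0.00239 and 7.39e-04). Both were also called higher in heart than in lung, but with libraries scaled by their totals alone DSG2 turned to -0.29 and DSC2 dropped to 0.37. PKP3, the plakophilin of epithelia, had the opposite pattern to PKP2, with 0 counts in heart, 0 to 3.75 in liver and 73.8 to 129 in lung (liver over lung -5.18, adjusted p = 6.41e-06). CTNNA3, the catenin of the cardiac disc, was highest in heart (58.6 to 158, against 9.53 to 14.95 in liver and 4 reads in all lungs).

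LGR4, a receptor for R-spondins that raises Wnt signalling, had 868, 519.7, 450.2 and 779 in heart, 1226, 634, 768 and 905 in liver and 65.2, 45.4, 26.6 and 90.8 in lung. Horses 1 and 4 had the 2 highest LGR4 levels in heart, in liver and in lung. Its relative LGR5 and the ligand RSPO3 were highest in liver: LGR5 had 1 read over the 4 hearts, 39.96 to 111 normalised counts in liver and 2.36 to 6.80 in lung, and RSPO3 had 0 to 5.97 in heart, 98.1 to 177 in liver and 6.46 to 9.65 in lung. Both were lower in heart than in liver (log2 fold changes -7.26 and -6.13, edgeR adjusted p = 3.15e-06 and 3.82e-06; -9.54 and -7.94 without heart replicate 2). ZNRF3, the ubiquitin ligase that R-spondins and LGR receptors oppose, had medians of 71.5 in heart, 220.3 in liver and 195 in lung.

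HJV encodes hemojuvelin, the co-receptor through which bone morphogenetic proteins induce hepcidin in the liver. It had 363, 387, 498 and 585 in heart, 598, 329.6, 411 and 490.5 in liver and 1.57, 2.9, 2.11 and 1.36 in lung. Heart and liver medians were almost equal (heart over liver 0.98), and the lungs held 19 reads together, which puts the pooled heart level at 229 times the lung level (95% counting interval 146 to 381) and the pooled liver level at 221 times (141 to 368). Its relatives RGMA (94.7 to 198 in heart, 0.953 to 3.63 in liver and 24.4 to 53.1 in lung) and RGMB (412 to 796, 21.0 to 31.3 and 201 to 337 by the same tissues) were instead lowest in liver. Heart over liver log2 fold changes were 6.31 for RGMA and 4.65 for RGMB (edgeR adjusted p = 1.35e-07 and 2.90e-08). BMP6, a ligand of hemojuvelin, was higher in heart than in liver (medians 540.3 and 212, log2 fold change 1.31, adjusted p = 3.83e-04). TFR2, the transferrin receptor that works with hemojuvelin in hepatocytes, was a liver gene with 3.35 to 47.6 in hearts 1, 3 and 4, 342 in heart replicate 2, 9667 to 15341 in liver and 3.38 to 13.9 in lung.

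GRB14, an adaptor that inhibits the insulin receptor, had 349.7, 512, 677 and 729 in heart, 924, 851, 649 and 894 in liver and 95.8, 41.5, 45.9 and 67.7 in lung. The lowest heart was 3.61 times the highest lung plus 1, the smallest such gap of the 19 genes after that of IGFBP3 (3.33). RCAN2, a regulator of the phosphatase calcineurin, had 564, 529, 922 and 739 in heart, 673, 864, 647 and 563 in liver and 27.5, 20.3, 19.03 and 9.87 in lung. Its heart over liver ratio of medians was 0.99, and the libraries of the 2 tissues overlapped.

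A further 2 genes act in the nucleus. GATA4 is a zinc-finger transcription factor of the embryonic heart and of the endoderm from which the liver grows. It had 459, 378, 421 and 499 normalised counts in heart, 257, 233, 269 and 319.7 in liver and 0.786, 0.483, 0.302 and 0 in lung. Every heart was above every liver, with a ratio of medians of 1.68, and libraries were within 1.32-fold in heart and 1.37-fold in liver. The 4 lungs held 3 GATA4 reads in all. Pooled over libraries, the heart level was 1445 times that of lung (95% counting interval 494 to 7017) and the liver level 824 times (281 to 4003), so that the size of the gap is set by very few lung reads. None of the 7 other GATA factors and partners with an identifier had heart and liver medians that were both at least 200. NKX2-5, which acts with GATA4 in cardiomyocytes, had 584 to 1361 in heart, no read in liver (at least 819.6-fold higher in heart, taking 3 counts over the 4 livers as the floor) and 1 read in lung. HNF4A, the hepatocyte regulator, had 3.66 to 9.56 in hearts 1, 3 and 4, 189.7 in heart replicate 2, 6601 to 8225 in liver and 0.340 to 4.23 in lung. The cofactor ZFPM2 was higher in heart than in liver (log2 fold change 3.34, edgeR adjusted p = 1.16e-06) and its relative ZFPM1 lower (-2.81, adjusted p = 8.57e-07). GATA2 was lowest in liver, with medians of 472 in heart, 20.9 in liver and 528 in lung.

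TCEA3, a member of the elongation factor family that restarts stalled RNA polymerase II, had 1317, 1290.3, 1259 and 1235 in heart, 1507, 2487, 1957 and 1729 in liver and 72.3, 124, 140.5 and 109.9 in lung. The 4 hearts were within 1.07-fold of each other, the tightest group of the 19 genes in any tissue, and every liver was above every heart.

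Metabolic or mitochondrial proteins are encoded by 6 genes. PGM1, which interconverts glucose 1-phosphate and glucose 6-phosphate on the way into and out of glycogen, had 2799, 2540.3, 3250.0 and 2925 in heart, 3960.2, 2056, 3397 and 3124 in liver and 332, 219.6, 262 and 308 in lung. It was the gene closest to the 10-fold limit and had the highest lung median of the 19 genes. The related PGM3, which serves amino sugar synthesis, was higher in liver than in lung (1.96, edgeR adjusted p = 9.13e-07) and lower in heart than in liver (-1.95, adjusted p = 1.02e-06), and PGM5 was higher in heart than in liver (2.84, adjusted p = 1.42e-06).

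PPP1R3C encodes a subunit that brings protein phosphatase 1 to glycogen. It had 1222, 568, 889 and 1524 in heart, 515, 257, 978 and 1101 in liver and 10.997, 10.1, 5.44 and 12.2 in lung. The livers differed by up to 4.28-fold, the widest liver spread of the 19 genes, and horse 2 had the lowest level in heart and in liver. The muscle subunit PPP1R3A was a heart gene, with 435 to 838 in heart, 3 reads in lung and no read in liver (at least 607-fold higher in heart than in liver with 3 counts as the floor). PPP1R3B, the subunit best known from liver, had a pattern closer to PPP1R3C, with 318 to 459 in heart, 389 to 841 in liver and 58.9 to 86.1 in lung. It was called higher in both than in lung (log2 fold changes 2.63 and 3.07, edgeR adjusted p = 8.03e-07 and 2.07e-07), although the heart call ended with libraries scaled by their totals alone (0.81).

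GLS2, the liver-type glutaminase that releases ammonia and glutamate from glutamine in mitochondria, had 1756, 1789, 1939.7 and 2200.2 in heart, 4814, 2686, 3017 and 3114 in liver and 66.8, 79.6, 52.3 and 93.2 in lung. Every liver was above every heart. In the RefSeq annotation of the TB-T2T horse assembly SPRYD4 overlaps GLS2. The libraries do not mark strand, so reads from the shared stretch cannot be told apart. SPRYD4 itself had medians of 83.8 in heart, 247 in liver and 42.6 in lung, and the effect of the overlap on the GLS2 values was not tested.

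PLIN5, the perilipin that coats lipid droplets and ties them to mitochondria in oxidative tissues, had 807, 1222, 955 and 519 in heart, 1610.4, 1810.2, 1374 and 1402 in liver and 3.93, 33.8, 28.7 and 4.42 in lung. Every liver was above every heart. The lungs split, with replicates 2 and 3 far above replicates 1 and 4. Its neighbour PLIN4 was a heart gene, with 936 to 1465 in heart, 3.81 to 10.9 in liver and 1.57 to 7.24 in lung (heart over liver log2 fold change 7.45 ± 0.37, edgeR adjusted p = 5.97e-09). PLIN3, the perilipin found in most cells, was higher in heart than in liver (1.90, adjusted p = 1.06e-04), with medians of 256 in heart, 67.1 in liver and 98.7 in lung. The 3 adipocyte genes with an identifier (CIDEC, FABP4 and LPL) summed to 6899.6 to 11178 in heart, 43.8 to 87.0 in liver and 96.1 to 262 in lung; the part of fat cells in the heart values of PLIN5 and PLIN4 was not tested.

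MACROD1, a mitochondrial hydrolase that removes ADP-ribose, had 921, 1083, 1929 and 1356 in heart, 656, 593, 541 and 454 in liver and 33.8, 37.6, 33.8 and 36.7 in lung. Every heart was above every liver, and the lungs were within 1.11-fold of each other. FLRT1 overlaps MACROD1 in the TB-T2T annotation. OCIAD2, a membrane protein with an OCIA domain, had 1207, 779.6, 1808 and 1385 in heart, 381, 796, 421 and 498 in liver and 55.8, 34.3, 36.6 and 33.7 in lung. Liver replicate 2 reached the lowest heart, and lung replicate 1 was the highest lung. Its neighbour OCIAD1 had 1395 to 1734 in heart, 1551 to 1882 in liver and 563 to 659.8 in lung. OCIAD1 was higher in both tissues than in lung (log2 fold changes 1.55 and 1.63, edgeR adjusted p = 6.08e-07 and 3.70e-07), yet scaled by totals alone these values were -0.28 and 0.08.

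**Figure D3:**
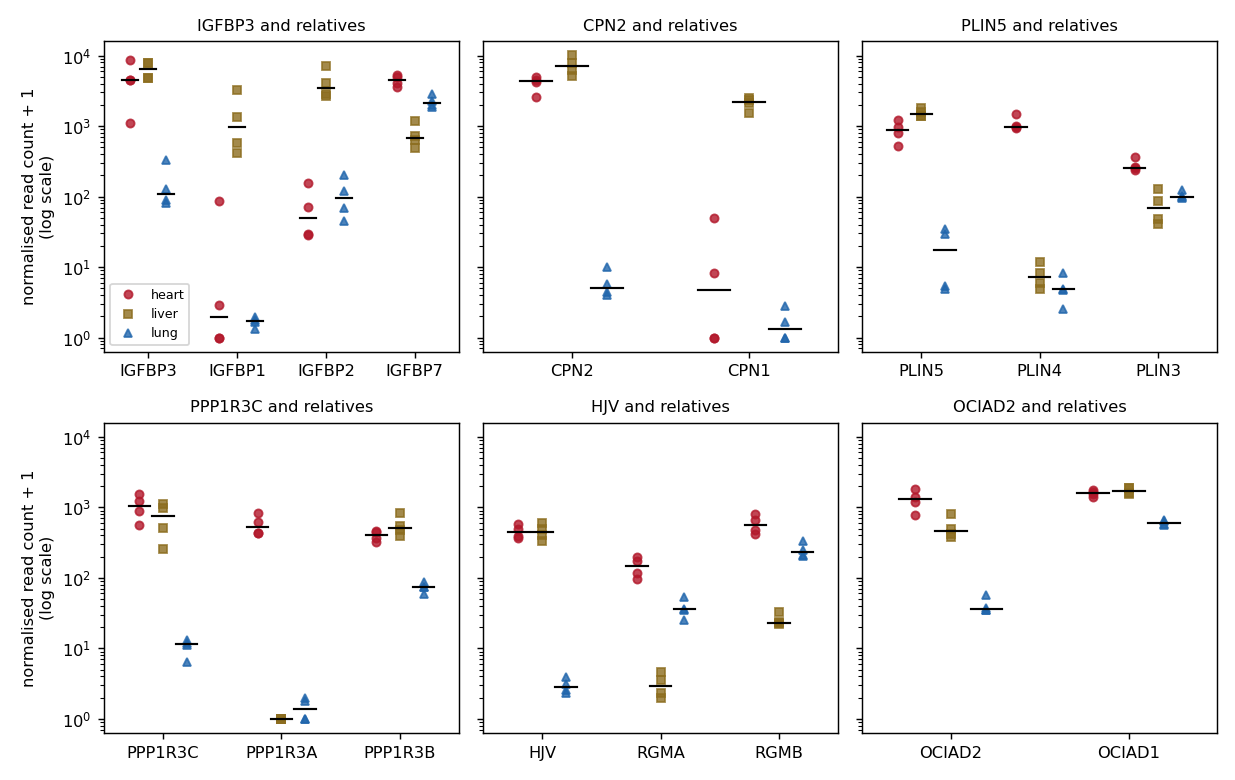
Normalised read counts plus 1 (vertical log axis) of 6 of the 19 genes and of relatives with an identifier, in heart (circles), liver (squares) and lung (triangles), 4 libraries each, with the median as a black bar. IGFBP1 and CPN1 were high in liver only, PLIN4 and PPP1R3A in heart only, RGMA and RGMB were lowest in liver, and the lung level of OCIAD1 (563 to 659.8) was far nearer to its heart level than that of OCIAD2 (33.7 to 55.8).

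For 2 identifiers there was no symbol in the tables used. ENSECAG00000027930 had 4951, 4665, 6928 and 6942 in heart, 2226, 2763, 1878 and 1664 in liver and 3.93, 0.483, 6.04 and 3.4 in lung. Every heart was above every liver, and the 4 lungs held 36 reads. ENSECAG00000007419 had 695, 294, 952 and 1316 in heart, 619.7, 565, 583 and 472 in liver and 40.1, 44.9, 36.3 and 35.4 in lung. Livers and lungs were each within 1.31-fold, while the hearts differed by up to 4.47-fold, and heart replicate 2 lay below every liver.

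Over the symbols of the families considered (70, chosen once the 19 genes were known), 38 had an identifier and 35 entered the test. Of these 35, 11 were higher in both heart and liver than in lung, and 8 without heart replicate 2, when CPN1, IGFBP1 and TFR2 lost the heart call. With libraries scaled by their totals alone 4 were (IGFALS, CPB2, CTNNA3 and HNF4A). Among all tested genes with a symbol in those tables the share was 25.1%. The tables hold mostly genes that the study called different between these same tissues, so these counts are not independent evidence of a direction. In the TB-T2T annotation, 17 of the 19 genes were found by symbol, with 34 protein-coding neighbours in all. None of the neighbours was itself 1 of the 19 genes. Of the 10 neighbours with an identifier, 5 were higher in heart than in lung (54.0% of all tested genes with a symbol were) and 9 higher in liver than in lung (44.7%), and 4 were called in both. Without heart replicate 2 the counts were 4 in heart and 3 in both, since IGFBP1 lost the heart call (0.47, edgeR adjusted p = 0.876), and LRG1 was called lower in heart than in lung. With libraries scaled by their totals alone they were 1 in heart, 6 in liver and 0 in both. With all libraries and TMM scaling, ASS1 beside HMCN2 and LRG1 beside PLIN5 were called in liver and not in heart (liver over lung log2 fold changes 5.53 and 5.95, edgeR adjusted p = 2.07e-07 and 2.31e-04).

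Between heart and liver the 19 genes were split. The heart median was the higher in 8 and the liver median in 11, and 11 of the 19 lay within 1.5-fold. Without heart replicate 2 the heart medians of HJV (498) and RCAN2 (739) lay above their liver medians (451 and 660). Those of ENSECAG00000007419 (952) and PPP1R3C (1222) were then over 1.5-fold above their liver medians (574 and 746). Most equal were HJV (heart over liver 0.98), RCAN2 (0.99) and PGM1 (0.88). The highest ratios were those of ENSECAG00000027930 (2.89), OCIAD2 (2.82) and MACROD1 (2.15), which were also the 3 genes called higher in heart (26.4% of all genes tested were), with log2 fold changes of 1.51, 1.35 and 1.28. The lowest were PLIN5 (0.58), GLS2 (0.61) and CPN2 (0.63), and 0 of 19 were called lower in heart (22.0% of all genes tested were). In 3 genes (ENSECAG00000027930, GATA4 and MACROD1) every heart was above every liver. In 4 (CPN2, GLS2, PLIN5 and TCEA3) every liver was above every heart, and in 12 the libraries overlapped. Without heart replicate 2, OCIAD2 and ENSECAG00000007419 also had every heart above every liver (lowest hearts 1207 and 695, highest livers 796 and 620). The 3-fold limit bounds all of these values. Shares of all genes whose heart and liver libraries lay apart were not computed, so nothing is read from these counts of separated libraries.

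The spread among replicates was measured as the SD, within a tissue, of log2(CPM + 0.5), where CPM is the count per 1000000 reads of the TMM-scaled library size. In heart the median SD of the 19 genes was 0.42, beside 0.29 over the 6063 tested genes with a heart median of at least 200. In liver it was 0.33 beside 0.25 over 6118 such genes, and in lung 0.32 beside 0.27 over the 10217 genes whose lung median lay in the range of the 19 genes. The widest single groups were IGFBP3 in heart (1.24), PLIN5 in lung (1.02) and HMCN2 in lung (0.97). The narrowest was TCEA3 in heart (0.05), followed by GATA4 in lung (0.06), where each library held 0 or 1 read. Together the 19 genes took 0.134% to 0.172% of the reads counted in genes in heart, 0.172% to 0.203% in liver and 0.0131% to 0.0167% in lung.

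Differences between the 4 horses were not used to choose the genes and were tested. In the edgeR model with tissue and horse, 163 of 15436 genes (1.06%) differed between horses at an adjusted p below 0.05, and 0 of the 19 genes did. At an unadjusted p below 0.05 there were 2 of 19 (LGR4 and PPP1R3C), beside 10.2% of all genes tested, so the share near the background is no result about these genes. DESeq2 called 1 of 19 (LGR4, adjusted p = 0.0399), beside 3.45% of all genes tested. For LGR4 the edgeR F was 7.71 with 3 degrees of freedom for the horses (adjusted p = 0.179). Horses 1 and 4 were above horses 2 and 3 in each of the 3 tissues, for example at 65.2 and 90.8 against 45.4 and 26.6 normalised counts in lung. PPP1R3C had the next smallest value (adjusted p = 0.436), followed by PGM1 (adjusted p = 0.532). CPN2 (adjusted p = 0.577) and PLIN5 (adjusted p = 0.595) came after them, and OCIAD2 had the largest (adjusted p = 0.998).

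**Figure D4:**
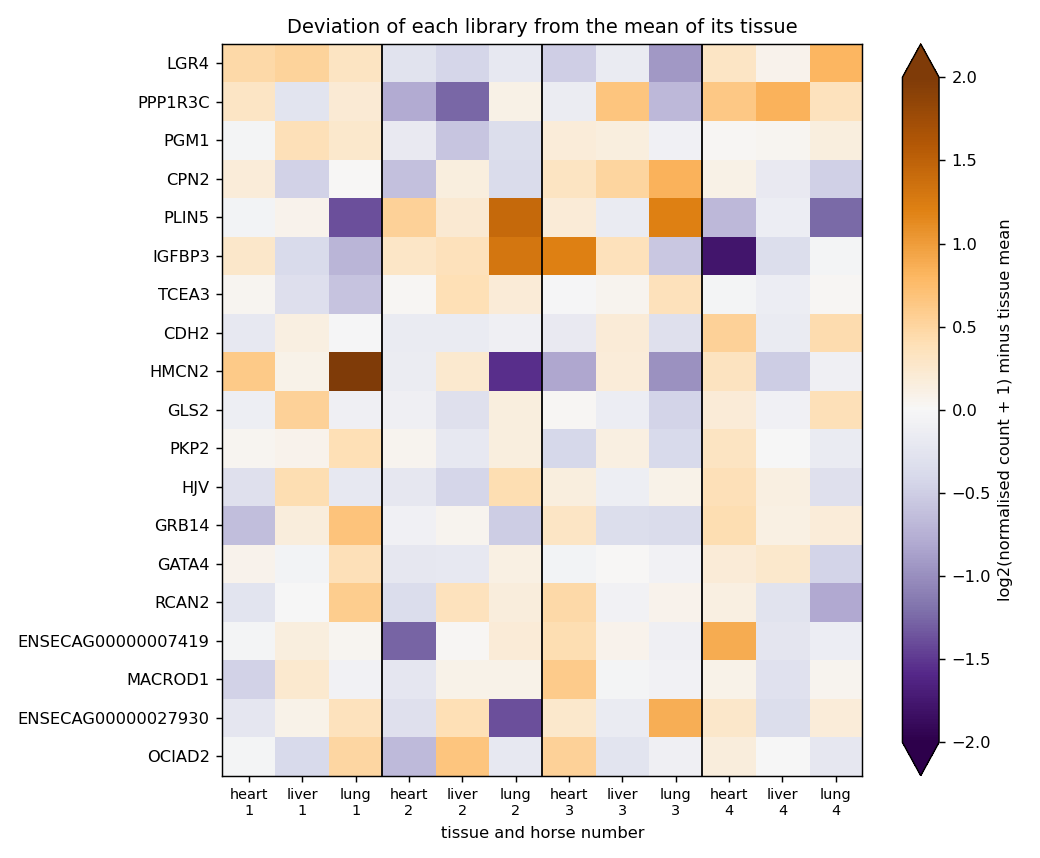
Deviation of each library from the mean of its tissue, in log2(normalised count + 1), for the 19 genes (rows, by increasing p of the test between horses) and the 12 libraries (columns, grouped by horse); the colour scale ends at -2 and 2. LGR4, at the top, is above the tissue mean in every library of horses 1 and 4 and below it in every library of horses 2 and 3, while HMCN2 reaches 2.63 in lung replicate 1 and the 4 lungs of PLIN5 split into -1.39 and -1.25 (replicates 1 and 4) and 1.43 and 1.204 (replicates 2 and 3).

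Genes of wider oxidative, storage and regulatory programmes were counted in 12 lists. Most of the lists, among them those of fatty acid oxidation and the citrate cycle, hold none of the genes described here. The others hold only GATA4, HJV, PPP1R3C, PLIN5 and PGM1 of them. The calls of these 5 over lung follow from how they were chosen, and they are included in the counts of their lists. In each list, only symbols with an identifier in the tables of the study could be used. Most of these were called on these same samples, so a high share is not independent evidence. Among all tested genes with a symbol there, 54.0% were higher in heart than in lung, 44.7% higher in liver and 25.1% higher in both. A count near these shares is no result about a list. The counts also rest on the scaling, and those with libraries scaled by their totals alone are given as counts by totals. By totals, 878 of all 15436 genes tested were higher in heart than in lung and 1151 higher in liver. Of 198 genes tested over the lists, 53 had heart and liver medians of at least 200 within 3-fold of each other. Of these 53, 5 were at 10 times the lung median plus 1 or more (GATA4, HJV, PPP1R3C, PLIN5 and PGM1), 15 lay between 5 and 10 times, 27 between 2 and 5 times and 6 under 2 times. GOT1 (9.11 times), GPD1 (9.01 times) and ACADM (8.46 times) were the nearest of those left out; they encode an aspartate aminotransferase, a glycerol 3-phosphate dehydrogenase and the medium-chain acyl-CoA dehydrogenase.

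In fatty acid oxidation, 18 of 21 genes tested were higher in heart than in lung and 19 of 21 higher in liver, with 17 of 21 in both and none of them among the 19 (median log2 fold changes 2.52 for heart and 3.37 for liver, beside -0.03 and -0.26 over all genes tested). Without heart replicate 2 the counts were 17 in heart and 16 in both. By totals they were 9 in heart, 14 in liver and 4 in both, with medians of 0.68 and 1.81 beside -1.85 and -1.81 over all genes tested. ACADM had log2 fold changes of 3.16 ± 0.26 in heart and 4.203 in liver. CPT1B, the muscle form of the carnitine palmitoyltransferase at the outer membrane, was called in heart alone (6.09) and had a liver value of -0.55. Peroxisomal oxidation differed, with 10 of 10 genes higher in liver than in lung and 0 of 10 higher in heart, also by totals.

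In the citrate cycle and pyruvate list, 23 of 26 genes were higher in heart, 20 of 26 in liver and 17 of 26 in both, and by totals 11 in heart, 5 in liver and 3 in both. FH, the fumarase, had log2 fold changes of 2.90 in heart and 3.54 in liver, and 17 of 26 genes were higher in heart than in liver (11 by totals). All 13 tested protein-coding genes of the mitochondrial genome were higher in both tissues (by totals 13 in heart and 11 in liver and in both), with medians of 6.79 in heart and 2.81 in liver. Of 16 carriers and coenzyme Q genes, 14 were higher in heart, 10 in liver and 8 in both, and by totals 7, 6 and 2 in that order; SLC25A4, the ADP/ATP carrier of muscle, had 6.47 in heart and 3.35 in liver.

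Branched-chain amino acid breakdown had 11 of 18 genes higher in heart, 14 of 18 in liver and 9 of 18 in both, but by totals 1 in heart, 9 in liver and 0 in both. For the other amino acid enzymes the count in both was 18 of 21, and 11 of 21 without heart replicate 2, the library with the high hepatocyte sum, and 4 of 21 by totals. TAT, the first enzyme of tyrosine breakdown, had a heart median of 7.88 against a liver median of 7985. Of 5 ketone body genes, 2 were higher in both (ACAT1 and SLC16A1; 1 by totals), while OXCT1, which serves the use of ketone bodies, was lower in liver than in lung (-4.18) and higher in heart (3.04).

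The list of glucose and glycogen genes, which holds PGM1 and PPP1R3C, had 13 of 27 genes higher in both tissues, 11 of 27 without heart replicate 2 and 8 of 27 by totals. The glycogen synthases were opposite, with log2 fold changes over lung of 2.88 in heart and -1.31 in liver for GYS1 and of -0.62 in heart and 7.43 in liver for GYS2, whose heart value was -2.50 without heart replicate 2. The list of lipid droplets, lipid transport and hormone response, which holds PLIN5, had 7 of 18 genes higher in both, 6 of 18 without that library and 4 of 18 by totals; G0S2, an inhibitor of triglyceride lipase, had 2.56 and 2.63. In the iron and oxygen list, which holds HJV, 4 of 7 were higher in both, 3 of 7 without it and 3 of 7 by totals. Of 16 transcription regulators, 5 were higher in both (3 by totals), GATA4 among them, and ESRRA, a nuclear receptor of mitochondrial genes, had 2.42 in heart and 2.12 in liver.

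**Figure D5:**
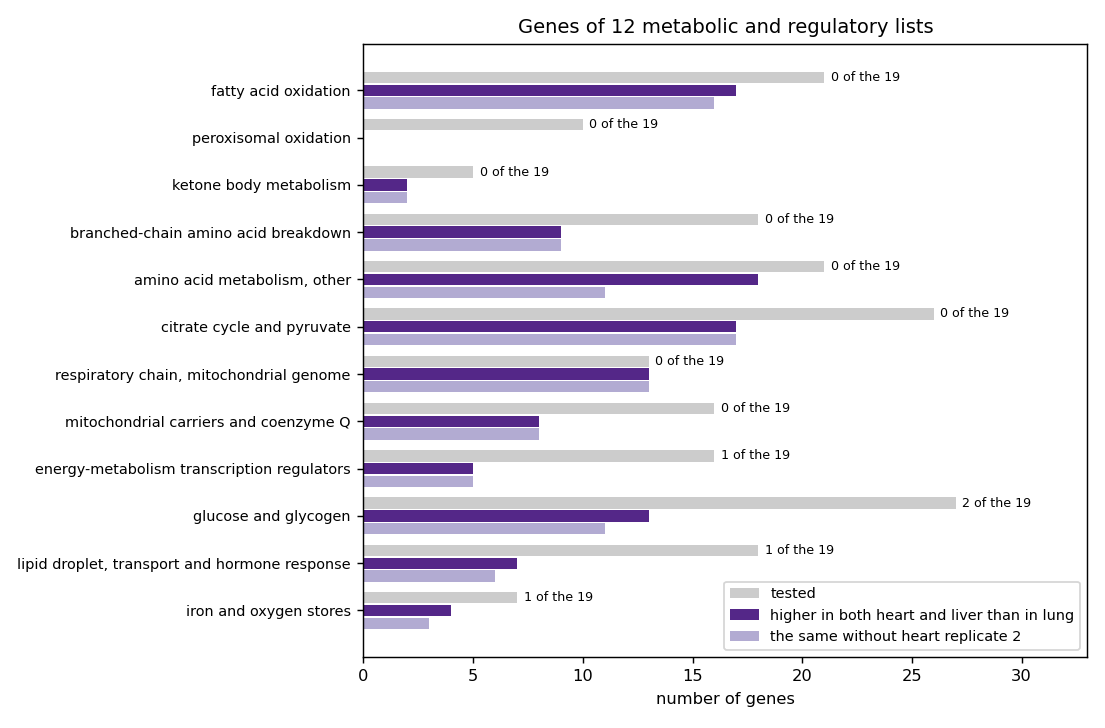
Number of genes (horizontal axis) of 12 lists that were tested (grey), higher in both heart and liver than in lung with all libraries and TMM scaling (dark purple), and the same without heart replicate 2 (light purple); the text beside each grey bar gives how many of the 19 genes the list holds. Peroxisomal oxidation has 0 of 10 genes higher in both and the mitochondrial genome 13 of 13, and without heart replicate 2 the other amino acid enzymes had 11 of 21 in place of 18 of 21.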

How the data were processed

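Polyadenylated RNA of heart, liver and lung from 4 horses was measured in 12 libraries, prepared with a TruSeq kit that does not mark strand and read in pairs of 150 bases. The deposited files hold unnormalised read counts for each gene, which the authors made, per the submitters' processing notes, with FastQC, TopHat2, HTSeq and the EquCab3.0 genome; the authors compared tissues with DESeq2. Sources used here give no strand setting for the counting. HTSeq drops reads that match several places or several genes, so genes with close copies or overlaps are undercounted. Its summary rows, 26.8% to 37.9% of the reads listed, stayed out of library sizes and tests.

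Size factors were medians of ratios over the 8968 genes with at least 10 counts in every library. Tests used edgeR 4.0.16 in R 4.3.3: TMM factors, the default filter by tissue (15436 genes), a robust quasi-likelihood fit of all libraries and Benjamini-Hochberg adjustment over all genes tested. A tissue call needs an adjusted p below 0.05 and a log2 fold change of 1 or more in size; the test between horses has 3 degrees of freedom and needs an adjusted p below 0.05. SE is the fold change over the square root of its F. DESeq2 1.42.0, other scalings, no filter, a replicate block and leaving out each library were alternatives. The steps were tested on simulated counts that followed library totals, with the same dispersion for all genes. That test cannot judge the choice of scaling, since the simulated tissues did not differ broadly in RNA composition. The horse number in the labels pairs libraries; deviations from tissue means correlated across genes at 0.102 to 0.432 in 12 pairs of the same horse and at -0.300 to 0.151 in 36 pairs of other horses. No 2 replicates agreed within sampling noise (chi-square per gene of at least 30.2).

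Symbols came from tables of the study that pair 3760 identifiers with symbols and were held only in part, so a symbol without an identifier is not analysed here. RefSeq TB-T2T, which lists no Ensembl identifier, served for neighbours and overlaps only, and no coordinates are given. Named were the 10 genes highest in the lower tissue, the 10 with the largest gap to lung, all in a list, the 5 smallest p between horses, the extremes and centre of the heart to liver ratio, and the genes nearest each limit; the other members were added. The members, lists and families were chosen with earlier results of these data known. Counts carry no molecular identifiers, so intervals cover counting error only. Where a group had no read, its floor was set at 3 counts over the group. Replicates are separate animals.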

Additional observations from a re-analysis of the deposited data

Results flagged for a closer look

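Among the 57 groups of 4 libraries formed by the 19 genes and 3 tissues, 3 held 1 library far from the other 3. In these, Dixon's ratio of normalised counts was above its 95% critical value. Chance gives about 1 in 20 groups for normally distributed values, so 3 of 57 is near what chance gives. The counts were not put on a log scale, so that rate is approximate. For CDH2 the highest heart, replicate 4, lay 0.969 of the whole range away from its nearest heart. For HMCN2 the highest lung, replicate 1, lay 0.899 of the range away, and for OCIAD2 the highest lung, also replicate 1, 0.870 of the range.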

How the results depend on the processing

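The rule chose 19 genes. Scaling by library totals alone gave 8, a limit of 5-fold against lung 69 and of 20-fold 11; chosen after seeing the data, the limits in every library gave 10 and totals without the 10 most abundant genes of each tissue 8. TMM sizes, means in place of medians, and other limits on the level or on the ratio of heart to liver gave 16 to 25. Leaving out 1 library gave 17 to 22, and 14 of the 19 genes were chosen in all 12 such runs.

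By library totals alone, the genes called over all tested were 878 higher in heart than lung and 11264 lower, 1151 higher in liver than lung and 10788 lower, and 247 higher in both; 2 members were called lower in heart than liver. With that scaling these log2 fold changes of related or neighbouring genes turned negative. Heart over lung gave -0.393 for ASAP3, -0.292 for DSG2, -0.232 for GJA1, -0.656 for IGFBP7, -0.283 for OCIAD1, -0.144 for PGM5, -0.225 for PLIN3, -0.414 for RGMB, -0.620 for SPRYD4, -0.109 for YARS2 and -0.295 for ZFPM2. Liver over lung gave -0.236 for ASAP3 and -0.381 for YARS2. No member turned negative. Over all alternatives, 2606 of the other recomputed fold changes of named genes kept their direction and side of the threshold. Another 44, of relatives or neighbours, lost their call, and 51 of members moved by more than the spread between replicates. Of these 51, 42 came with libraries scaled by their totals alone, where 15 member values stayed the same. Depth limits the size of the gap for GATA4, with 3 reads in the lungs.

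Between horses, DESeq2 called 1 member, LGR4, and 533 genes over all tested, against 0 and 163 with edgeR; leaving out 1 library gave 82 to 207, the lowest without lung replicate 1. Leaving out 1 library gave 3127 to 3374 genes higher in heart than lung and 3719 to 4168 lower, 2965 to 3419 higher in liver than lung and 4555 to 5025 lower, 3912 to 4196 higher in heart than liver and 3319 to 3670 lower, and 1170 to 1436 higher in both. With the replicate block, which pairs libraries of 1 horse, 19, 19, 3 and 0 members were called higher in heart than lung, higher in liver than lung, and higher and lower in heart than liver, the same numbers as without it; over all genes it called 3114 higher in heart than lung and 2999 higher in liver than lung.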
